A study of Homo sapiens with 6 samples.

Results

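The genes for cytosolic ribosomal proteins were examined in T24, a cell line grown from a bladder carcinoma, after a hairpin against DLGAP5, a spindle protein of dividing cells. Members were the protein-coding rows of the expression table whose symbols have the form of a ribosomal protein gene (RPL or RPS with a number, with or without the letters A, X or L) or are RPLP0, RPLP1, RPLP2 or RPSA. This gave 85 of the 58825 genes in the table: 31 of the small subunit, 43 of the large subunit, 3 of the P stalk and 8 paralogs, which are genes related to another member. RNA was sequenced from 3 control libraries (shNC-1, genotype WT in the labels) and 3 knockdown libraries (shDLGAP5-1, 1 hairpin); all cells were T24 in medium with serum. Nothing states that replicates were independent cultures, and the p-values therefore describe the spread among these libraries, possibly a technical one.

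The ribosome has a small subunit that reads messenger RNA and a large subunit that joins amino acids, and each ribosomal protein is needed in about the same number of copies. Messenger RNAs of ribosomal proteins start with a C followed by a run of C and T bases (U in the RNA), the terminal oligopyrimidine or TOP motif, through which mTOR complex signalling and the RNA-binding protein LARP1 set their translation and stability. Growing carcinoma cells devote a large part of their transcripts to these genes. Values were read as FPKM from their form, that is fragment numbers scaled for transcript length and library size, and levels of different genes are compared on that per-length scale.

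Start sites of members are shown first, because the shared start is what sets these transcripts apart. Each run below holds 15 bases before the annotated start and 15 from it, as RefSeq gives it for GRCh38.p14, in the direction of transcription. Capitals mark a C that lies within 3 bases of the start together with at least 4 following bases that are C or T. In windows not shown, RPL10 and RPL13, also called higher, had no such run, while RPS28, at a log2 fold change of 0.11, had one. The first 8 shown are the P stalk gene RPLP0 and 7 members that were higher in knockdowns. The other 6 are RPS26, RPS27A and RPL6, which were among the members with the lowest log2 fold changes, and 3 paralogs.
RPLP0 (chr12:120201097-120201126, minus strand): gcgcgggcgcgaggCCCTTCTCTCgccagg
RPL39 (chrX:119791616-119791645, minus strand): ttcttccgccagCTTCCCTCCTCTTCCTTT
RPL28 (chr19:55385917-55385946, plus strand): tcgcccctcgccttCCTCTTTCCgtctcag
RPL3 (chr22:39319609-39319638, minus strand): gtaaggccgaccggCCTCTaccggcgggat
RPL34 (chr4:108620561-108620590, plus strand): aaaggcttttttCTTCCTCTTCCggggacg
RPS9 (chr19:54200843-54200872, plus strand): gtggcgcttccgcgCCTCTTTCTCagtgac
RPS14 (chr5:150449725-150449754, minus strand): ccgccccctcccaCTCTCTCTTTCCggtgt
RPS18 (chr6:33272060-33272089, plus strand): cgcgtcacttccgCTCTCTCTTCCacagga
RPS26 (chr12:56041903-56041932, plus strand): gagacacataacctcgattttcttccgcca
RPS27A (chr2:55231888-55231917, plus strand): taaggagtgacacacaagacccagactctt
RPL6 (chr12:112411428-112411457, minus strand): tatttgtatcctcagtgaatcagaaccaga
RPL26L1 (chr5:172958714-172958743, plus strand): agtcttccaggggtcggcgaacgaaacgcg
RPL36AL (chr14:49620612-49620641, minus strand): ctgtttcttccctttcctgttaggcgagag
RPS27L (chr15:63157463-63157492, minus strand): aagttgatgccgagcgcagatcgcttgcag

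The RefSeq table held windows for 68 of the 85 members, and 48 of the 68 (70.6%) had such a run on the transcribed strand, against 13.1% of all 27305 windows and 14.9% of 9256 windows of tested genes. The longest run among those shown, 22 bases, was that of RPL39 and went on beyond the printed window. Among paralogs 1 of 6 windows had such a run, that of RPL22L1. Mitochondrial ribosomal proteins, which are made from other genes and serve another ribosome, had it in 8 of 69 windows. Of tested members other than paralogs, the 47 with a run had a log2 fold change of 0.49 at the median, the 15 without one 0.28, a description for which no test was made. An annotated start can differ from the one these cells use, so a missing run says only that none began within 3 bases of that start. A stretch of C and T can lie elsewhere in such a window, as in that of RPL36AL.

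The targeted gene DLGAP5 was at 33.0, 32.7 and 29.7 FPKM in the controls and fell to 5.51 ± 1.80 FPKM with its hairpin (SD, n = 3, limma adjusted p = 0.000894), the direction the labels give. Depth, estimated roughly from the smallest steps of single-exon genes, was 21400000 to 28200000 fragments for controls but 13500000 to 18600000 for knockdowns; its part in the results was not tested. Epithelial markers summed to 1155 to 1533 FPKM and mesenchymal markers, VIM among them, to 1589 to 2088 FPKM over the 6 libraries; the epithelial sum was carried by KRT7, KRT8 and KRT18, with CDH1 at no more than 0.167 FPKM. Of these lists KRT19 fell (log2 fold change −0.76) and FN1 rose (0.95), and their part in the results was not tested. The 6 urothelial markers, uroplakins among them, summed to 10.8 to 14.998 FPKM. Only 1 of the 6 reached 1 FPKM in 3 or more libraries, with means of 10.9 FPKM in controls and 11.6 FPKM in knockdowns. Of 9 leukocyte markers 2 were listed at 0 throughout; their sum was 734 FPKM in knockdown replicate 3 and 5.51 to 25.1 FPKM elsewhere. CD74, among them, rose (log2 fold change 1.80; 2.51 to 3.00 FPKM in controls, 10.55 to 14.8 FPKM in knockdowns), and the part of these transcripts in the results was not tested. The red blood cell markers summed to at most 0.0145 FPKM and the endothelial ones to 8.45 FPKM in knockdown replicate 3 and at most 0.388 FPKM elsewhere.

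Ribosomal protein transcripts took a larger part of the total in knockdowns than in controls. The 85 genes made up 14.6%, 15.5% and 17.4% of all FPKM in control replicates 1 to 3 and 22.9%, 19.1% and 19.7% in knockdown replicates 1 to 3. Every knockdown library lay above every control library, with knockdown replicate 1 highest. The deviation of the median member from its control mean, on the log2(FPKM + 1) scale, was −0.16, −0.05 and 0.21 in control replicates 1 to 3 and 0.67, 0.30 and 0.27 in knockdown replicates 1 to 3. The gap between control replicate 3 and the lower knockdown libraries was thus smaller than the spread within either group. Fewer cells of a type and less RNA per cell cannot be told apart in such bulk samples.

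**Figure D1:**
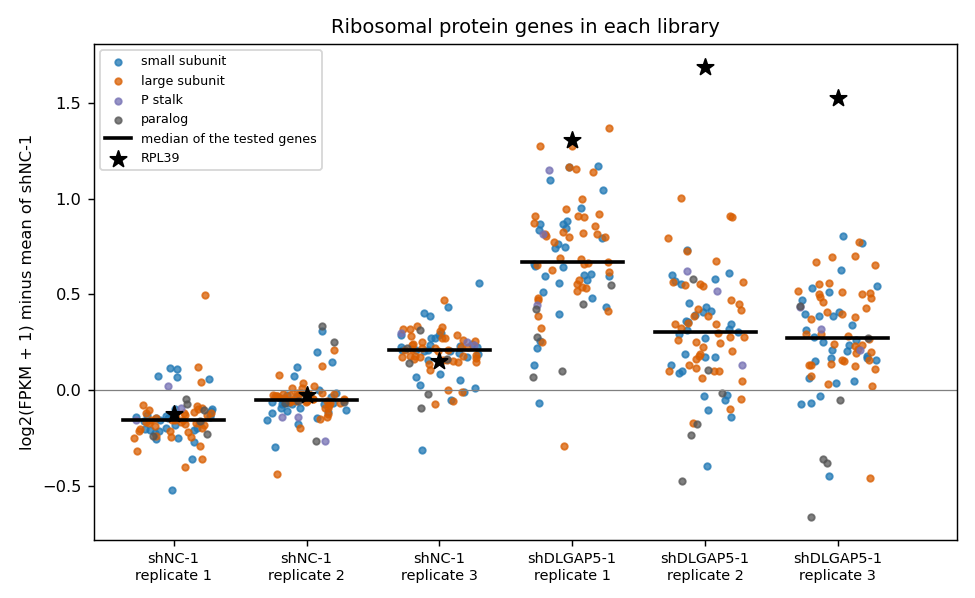
Each point is 1 of the 83 tested ribosomal protein genes in 1 library, plotted as log2(FPKM + 1) minus its mean over the 3 control libraries; colours give the subunit, stars RPL39 and black bars the median. The medians are −0.16, −0.05 and 0.21 in controls and 0.67, 0.30 and 0.27 in knockdowns, and RPL39 lies far above the median in all knockdown libraries.

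Of the 85 members 83 passed the filter of 1 FPKM in at least 3 libraries, all of them in both groups; RPL3L, a large-subunit paralog of striated muscle, and RPL10L, one of testis, were listed at 0 in all libraries. By limma over all genes tested, 16 of the 83 rose and 0 fell at an adjusted p under 0.05. That is 19.3% of the tested members, where 15.3% of all 12714 tested genes were called higher and 9.52% lower, so the share of rises is near that of genes in general. The members had a median of 0.41 on the log2 fold change scale against 0.03 for all tested genes, and 78 of 83 estimates were above 0. With quantile normalization the median was 0.20 and 64 estimates were above 0, with median-ratio scaling 73 and with equal totals 74. In 35 members (42.2%) all knockdown libraries lay above all control libraries, against 25.6% of all tested genes, and in 0 members below, against 18.3%. In either direction, 24.8% of all tested genes were called.

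These calls depended on single libraries, and on 1 of the 3 other scalings. Without control replicate 1 or 2, 1 member was called higher, without knockdown replicate 1 it was 6 and without knockdown replicate 2 it was 9. Of all tested genes 7.76% and 7.01% were called higher without control replicate 1 or 2. The shares were 11.4% and 8.19% without knockdown replicate 1 or 2. With median-ratio scaling, which moved the median of all genes by −0.10, 3 members were called higher, RPL39 and RPL28 among them; relative to the median of all genes the members' median was 0.36 there and 0.38 in the main analysis. With equal totals 17 members were called higher and with quantile normalization 15. Of all calls over the 12714 genes, 61.6% were higher in the main analysis, 42.3% with median-ratio scaling, 48.1% with equal totals, 50.8% with quantile normalization and 50.04% after removal of each library's length trend. Without knockdown replicate 3, the library with leukocyte transcripts, 19 members were called higher, where 12.1% of all tested genes were. Members are short, with a median principal transcript of 709 bases against 2808 for all tested genes, and their median log2 fold change was 0.33 after that removal, or 0.27 with the length of the principal transcript. Across the 77 tested members other than paralogs the log2 fold change and the log2 length of the principal transcript had a Pearson r of −0.17, and with the longest transcript r was 0.11, so the sign turned with the choice of length; both describe genes that share libraries.

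**Figure D2:**
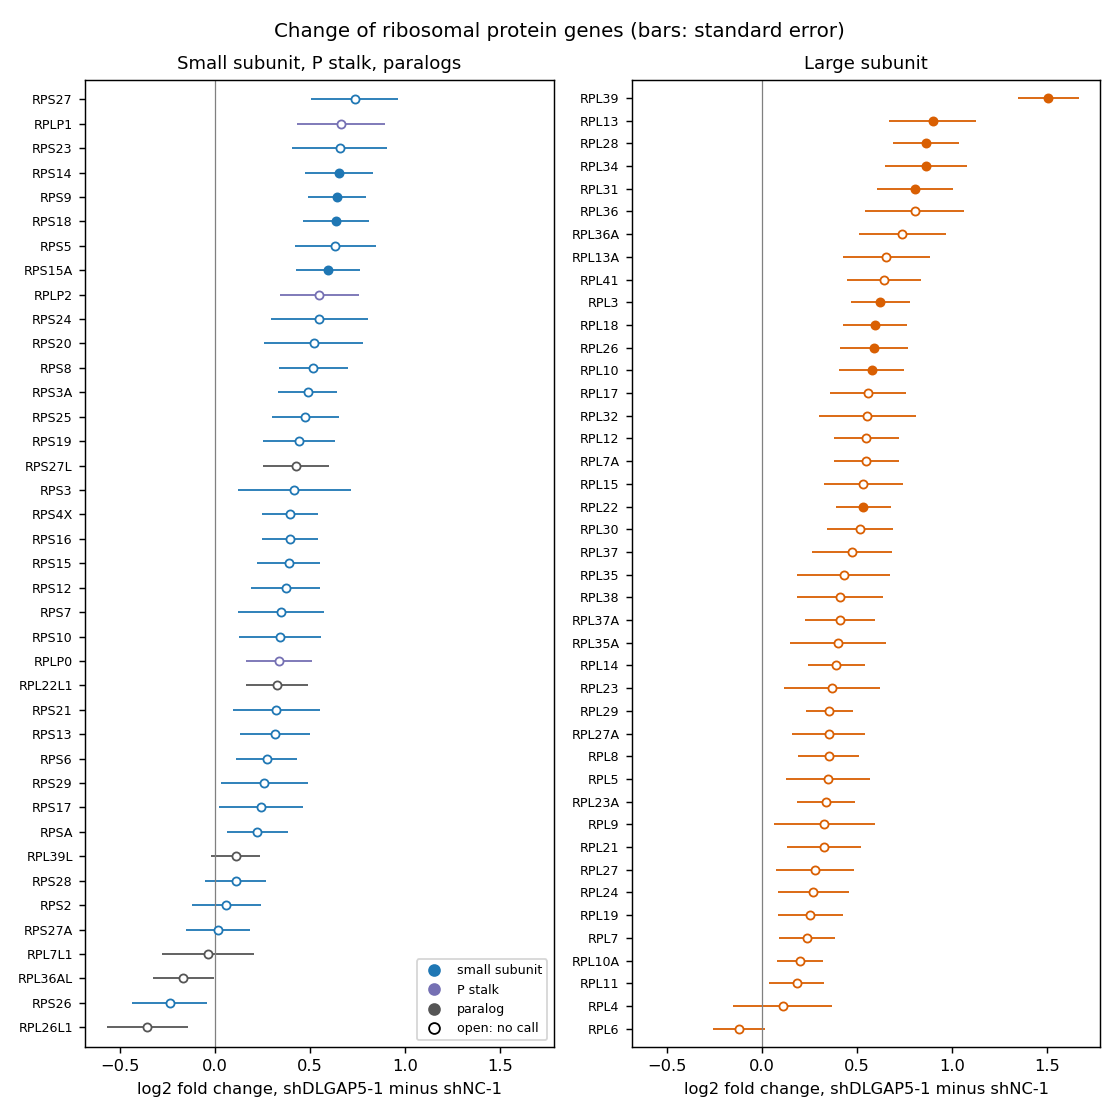
Log2 fold changes of tested ribosomal protein genes on the log2(FPKM + 1) scale, with its standard error; filled points passed the adjusted p threshold of 0.05 and open points did not. RPL39 stands at 1.51, apart from the next gene, RPL13, at 0.90, and 5 genes lie under 0.

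RPL39 rose the most of all members. It encodes a small protein that lines the exit tunnel for new peptides in the large subunit. Its level was 1209, 1297 and 1469.9 FPKM in control replicates 1 to 3 and 3268, 4267 and 3812 FPKM in knockdown replicates 1 to 3. All knockdown libraries lay far above all control libraries, and here knockdown replicate 1 was the lowest of its group. The mean went from 1325 ± 133 to 3782 ± 500.5 FPKM (SD, n = 3 each), a ratio of 2.85 with a fitted 95% interval of 2.19 to 3.70 (log2 fold change 1.51, standard error 0.16, limma adjusted p = 0.00160).

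This was the 1 member called in the main analysis and in all 18 alternatives, with log2 fold changes of 1.20 to 1.61 and a highest adjusted p of 0.0249. RPL39 made up 2.01%, 2.01% and 1.94% of the summed FPKM of all members in controls and 2.93%, 5.00% and 4.49% in knockdowns, a share that does not change with the scaling of a library. The 15 pseudogenes named after it together reached 7.75 to 23.2 FPKM. The gene (ENSG00000198918) lies on the minus strand of chromosome X from 119786504 to 119791630 in the coordinates of the table (GRCh38); the snoRNA gene inside it, SNORA69, was at no more than 0.187 FPKM.

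**Figure D3:**
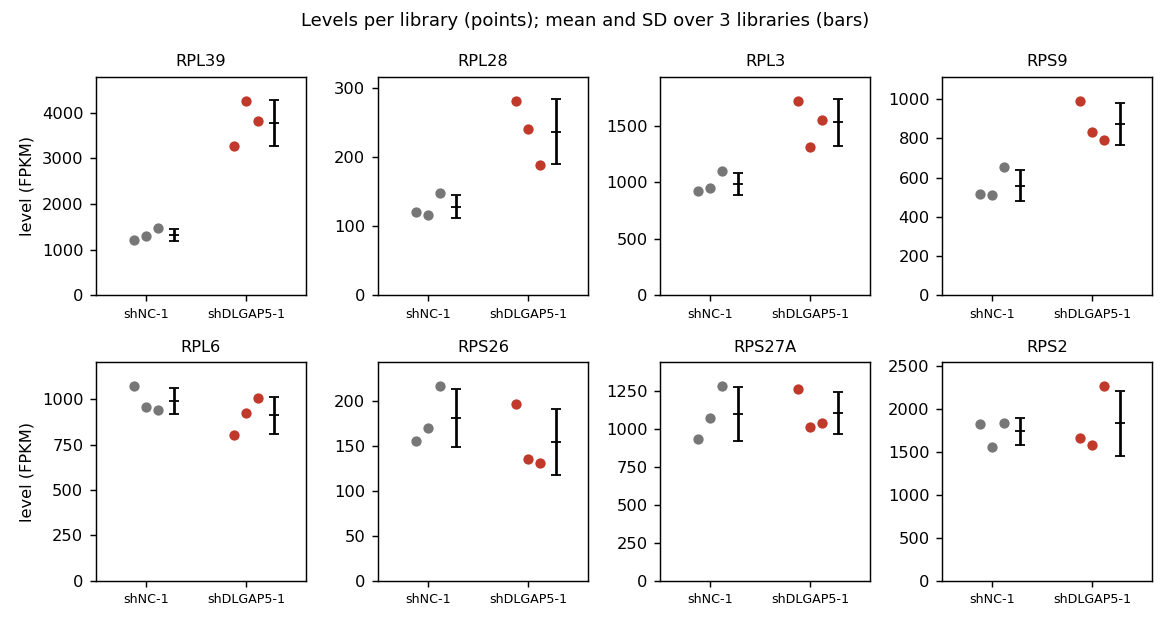
Levels in FPKM of 8 ribosomal protein genes, each point a library (replicates 1 to 3 from left to right) and bars the mean ± SD over 3 libraries; axes start at 0. In the top row the groups do not overlap, as for RPL39 at 1209 to 1469.9 against 3268 to 4267 FPKM, and in the bottom row they do.

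Of 43 large-subunit genes, all tested, 11 (25.6%) rose and 0 fell, where 15.3% of all tested genes were called higher and 9.52% lower. The median log2 fold change was 0.47. RPL28, a large-subunit surface protein, stood at 120.4, 117 and 147 FPKM in controls and at 282, 239.7 and 188 FPKM in knockdowns (log2 fold change 0.87, standard error 0.17, limma adjusted p = 0.0134). The groups did not overlap, although the call was lost without control replicate 1 or 2. RPL28 overlaps UBE2S on the opposite strand, which was at 98.4 to 121 FPKM in controls and 55.2 to 71.5 FPKM in knockdowns; the use of strand in counting is not given, so reads in the overlap are uncertain.

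RPL3, whose protein reaches toward the peptidyl transferase centre, was at 918, 945 and 1099 FPKM in controls and at 1721, 1314 and 1548 FPKM in knockdowns (log2 fold change 0.62, adjusted p = 0.0265). RPL34 was at 409, 451 and 560.0 FPKM against 1139, 684 and 803 FPKM (0.87, adjusted p = 0.0277). RPL10, which joins the large subunit late in its assembly, was at 1521, 1460.1 and 1875 FPKM against 2337, 2796 and 2121 FPKM (0.58, adjusted p = 0.0473). None of these groups overlapped, and all 3 calls were lost in fits without control replicate 1 or 2. RPL10 was called in 8 of the 19 settings, the main one included, and its log2 fold change was 0.0786 with quantile normalization, where that of RPL3 was 0.32. Others that rose were RPL13, RPL18, RPL22, RPL26 and RPL31, and these calls too were lost without control replicate 1 or 2. RPL26 (limma adjusted p = 0.0498) was called in 6 of the 19 settings and lost its call in each fit without 1 library.

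RPL5 and RPL11, which join the large subunit with 5S ribosomal RNA and can bind MDM2, did not pass. RPL5 stood at 849 ± 209 and 1071 ± 193 FPKM (0.35 as log2 fold change; SD, n = 3 each) and RPL11 at 761 ± 102 and 861 ± 73.3 FPKM (0.18). RPL23, which also can bind MDM2, stood at 254 ± 29.1 and 341 ± 119.7 FPKM (0.37). Levels of each overlapped between the groups.

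RPL35, with RPL39 the most abundant of the large subunit by the mean over all 6 libraries, was at 1749, 1949 and 2307 FPKM in controls and 3831, 2157 and 2332 FPKM in knockdowns. The groups overlapped, and its log2 fold change of 0.43 did not pass (adjusted p = 0.240). The least abundant were RPL14, at 77.05 to 91.6 against 97.6 to 138 FPKM, and RPL37, at 91.3 to 121 against 121 to 197 FPKM; neither passed. RPL6 was the 1 large-subunit gene with an estimate under 0, with 1075, 958 and 939.7 FPKM in controls and 806, 924 and 1009.7 FPKM in knockdowns (log2 fold change −0.12, adjusted p = 0.551). It overlaps PTPN11 on the opposite strand, which was at 42.9 to 53.6 FPKM in controls and 20.1 to 32.2 FPKM in knockdowns. RPL4 stood at 681, 704 and 889 FPKM against 1077, 911 and 547 FPKM (0.11, adjusted p = 0.785), with knockdown replicate 3 the lowest library of all.

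Of 31 small-subunit genes, all tested, 5 (16.1%) rose, a share near the 15.3% of all tested genes, and 0 fell. The median log2 fold change was 0.39, and 0.15 with quantile normalization. RPS9, a protein near the messenger RNA entry site, was at 516, 510.3 and 652 FPKM in controls and 992, 832 and 793 FPKM in knockdowns (log2 fold change 0.64, limma adjusted p = 0.0243). RPS14, whose loss of 1 copy is known from the 5q deletion syndrome, was at 461, 593 and 560.2 FPKM against 1034, 817 and 704 FPKM (0.65, adjusted p = 0.0368). For both the groups were apart, with knockdown replicate 1 the highest library.

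RPS18, with RPS27 the most abundant of the small subunit by the mean over all 6 libraries, rose by 0.64 in log2 units (adjusted p = 0.0370) and RPS15A by 0.59 (adjusted p = 0.0406). These 4 small-subunit calls were lost without control replicate 1 or 2, and with quantile normalization the log2 fold changes of RPS18, RPS9 and RPS14 were 0.14, 0.41 and 0.42. RPS27 stood at 1719, 1987 and 2296 FPKM in controls and 4467, 2634 and 3069 FPKM in knockdowns. Its groups did not overlap, yet the log2 fold change of 0.73 missed the threshold (adjusted p = 0.0557). RPS6, the substrate of the S6 kinases, stood at 844 ± 63.6 and 1028 ± 186 FPKM (SD, n = 3 each; 0.27, limma adjusted p = 0.255), and RPS19, mutated in Diamond-Blackfan anaemia, at 168, 171 and 254 against 307, 242 and 246 FPKM (0.44, adjusted p = 0.134).

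RPS26, RPS27A and RPS2 had the lowest log2 fold changes of the small subunit. RPS26, which lies at the messenger RNA exit site, stood at 156, 170.1 and 216 FPKM in controls and 196, 136 and 131 FPKM in knockdowns (log2 fold change −0.24, adjusted p = 0.408). Its share of all member FPKM was 0.259%, 0.264% and 0.286% in controls and 0.176%, 0.159% and 0.154% in knockdowns, lower in every knockdown library. RPS26 was chosen for its low log2 fold change, and the shares of RPL6, RPL11 and RPSA, among others, were lower in every knockdown library too. RPS27A, made as a fusion with ubiquitin, stood at 929, 1071 and 1281 against 1261, 1009 and 1035 FPKM (0.01), with a share of 1.54% to 1.69% against 1.13% to 1.22%. RPS2 stood at 1821, 1558 and 1838 against 1657, 1574 and 2267 FPKM (0.06). RPS28, with RPS26 among the least abundant, stood at 102, 121 and 150.1 against 147, 132 and 120.1 FPKM (0.11). The signs for RPS2, RPS27A and RPS28 turned negative with other scalings, and that of RPL4 too.

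The P stalk of the large subunit recruits elongation factors, and its 3 genes had log2 fold changes of 0.34 (RPLP0), 0.66 (RPLP1) and 0.55 (RPLP2), of which 0 passed (adjusted p = 0.202, 0.0776 and 0.0943). RPLP1 was at 576, 557 and 724 FPKM in controls and 1366, 880.3 and 768 FPKM in knockdowns, without overlap. RPLP0 and RPLP2 overlapped between the groups. Without knockdown replicate 3, RPLP1 and RPLP2 were called.

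Among the 77 tested members other than paralogs, levels ranged from 77.05 to 1821 FPKM in control replicate 1 and from 138 to 4467 FPKM in knockdown replicate 1. Their log2 levels had an SD over genes of 1.03 to 1.05 in the controls and 1.07 to 1.10 in the knockdowns. The ratio of the median large-subunit to the median small-subunit level was 0.821, 0.917 and 0.850 in controls and 0.983, 1.01 and 0.915 in knockdowns, with overlap. Such levels rest on how reads of pseudogenes were assigned. The table lists 1132 pseudogenes named after 76 of the members, with summed FPKM equal to 3.12% to 3.59% of that of the members in each library.

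For 3 members 1 pseudogene took a large part. RPL9 stood at 669, 350 and 456 FPKM in controls and 661, 459 and 697 FPKM in knockdowns, a log2 fold change of 0.33 that did not pass. Its pseudogene RPL9P9 was at 646, 608 and 723 FPKM against 1527, 1134 and 1170.1 FPKM (log2 fold change 0.94, limma adjusted p = 0.00740). Summed, the 2 rows gave 1151 FPKM in controls and 1883 FPKM in knockdowns on average, without overlap between groups, and RPL9 was called higher when the FPKM of all its pseudogenes were added. RPS28P7, at 290 to 318 FPKM in controls and 296 to 387 FPKM in knockdowns, exceeded RPS28 itself, and RPS2P5 was at 471 to 534 against 465 to 492 FPKM. The split of reads between these rows and the members is uncertain.

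Of 6 paralogs tested, 0 passed; 3 estimates were above 0 and 3 below, with a median of 0.04. RPL26L1 stood at 54.5, 76.6 and 63.2 FPKM in controls and 67.3, 45.9 and 40.1 FPKM in knockdowns (log2 fold change −0.36, adjusted p = 0.258). RPL36AL stood at 168, 180.3 and 219 against 201, 159 and 146 FPKM (−0.17), and RPL39L, an exit tunnel paralog known from testis and tumour cells, at 28.5, 29.3 and 34.4 against 37.3, 33.0 and 29.5 FPKM (0.11). RPS27L, a p53 target, stood at 7.71, 11.99 and 8.66 against 12.8, 14.4 and 11.4 FPKM (0.43, adjusted p = 0.117). RPL22L1 stood at 51.5 ± 4.49 against 65.6 ± 12.98 FPKM (0.33, called without knockdown replicate 2) and RPL7L1, a factor of large-subunit assembly, at 20.4 ± 4.46 against 20.2 ± 6.67 FPKM (SD, n = 3 each; −0.04). All overlapped between groups. After removal of the length trend RPL36AL was called lower, and with the length of the principal transcript RPL26L1, RPL36AL and RPS26 were.

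Set against their main genes within each library, 3 paralogs were lower in every knockdown library. RPL26L1 was at 9.26%, 11.5% and 8.59% of RPL26 in controls and 5.43%, 5.47% and 4.23% in knockdowns. RPL36AL was at 17.4%, 16.1% and 15.6% of RPL36A against 7.81%, 9.38% and 9.06%, and RPL39L at 2.35%, 2.26% and 2.34% of RPL39 against 1.14%, 0.772% and 0.774%. The log2 ratios differed by −0.95, −0.91 and −1.40. By themselves the main genes had log2 fold changes of 0.59 (RPL26), 0.74 (RPL36A) and 1.51 (RPL39). The paralogs were at −0.36, −0.17 and 0.11, none of them called. A lower ratio thus holds the change of the main gene and does not by itself show a fall of the paralog. An exact two-sided permutation test gave p = 0.1 for each, the smallest that 3 against 3 libraries allow, and 0.2 when adjusted over the 6 pairs. For RPL7L1, RPL22L1 and RPS27L the ratios overlapped (exact permutation p = 0.3, 0.3 and 0.4). Within-library ratios do not depend on library scaling.

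**Figure D4:**
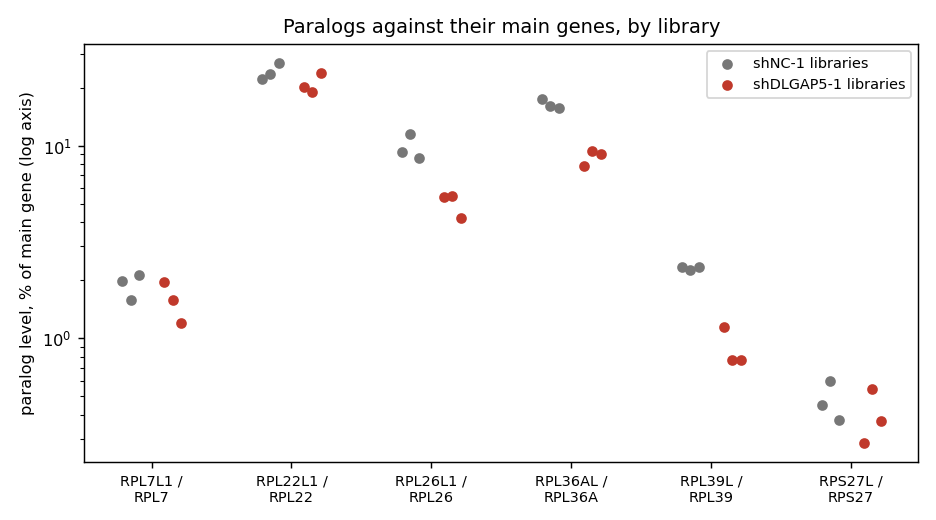
Level of each paralog as a percentage of its main gene, on a log axis, with 1 point per library. The groups are apart for RPL26L1, RPL36AL and RPL39L, the last at 2.26% to 2.35% against 0.772% to 1.14%, and overlap for the other 3.

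Genes that host small nucleolar RNAs are known for the same kind of start, a run found in 4 of their 10 windows. These noncoding transcripts carry guide RNAs for ribosomal RNA modification in their introns and are decayed once translated. Of 12 tested, 7 (58.3%) rose and 0 fell, where 15.3% of all tested genes were called higher and 9.52% lower. The median log2 fold change was 0.74. SNHG29 was at 239, 224 and 246 FPKM in controls and 436, 412 and 422 FPKM in knockdowns (log2 fold change 0.84, standard error 0.10, limma adjusted p = 0.00251), and ZFAS1 at 99.4, 100.3 and 129 against 281, 209.8 and 201 FPKM (1.06, adjusted p = 0.00630). SNHG6 (0.72) and EPB41L4A-AS1 (0.84) rose as well, and these 4 were called in the main analysis and all 18 alternatives. GAS5, SNHG7 and SNHG5, named after their values were seen, were the others called. Without control replicate 1 or 2, 4 host genes were called, where 7.76% and 7.01% of all tested genes were called higher. With the replicate block it was 6 host genes, where 7.48% of all tested genes were.

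Of 19 elongation factor and other TOP messenger RNAs 3 (15.8%) rose and 0 fell, a share near the 15.3% of all tested genes, with a median of 0.34. TPT1, the translationally controlled tumour protein, was at 384, 449 and 523 FPKM in controls and 1369.8, 927 and 1679 FPKM in knockdowns (log2 fold change 1.52, adjusted p = 0.00572), and was called in all alternatives. NOP53, a nucleolar protein, rose by 0.61 on the log2 scale and EIF4A2, a helicase of initiation, by 0.35; both calls were lost without control replicate 1 or 2, among other fits. EEF1A1, which brings transfer RNA to the ribosome, stood at 2796, 2650.1 and 2702 against 3318, 2972 and 2999.8 FPKM, without overlap, and did not pass (0.19, adjusted p = 0.350). Of the genes for other ribosome-bound or ribosome-fused proteins, FAU and RACK1 among them, 0 of 3 passed (median 0.16).

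Of 12 tested chaperones and assembly partners 4 fell and 1 rose, where 9.52% of all tested genes were called lower and 15.3% higher. The median log2 fold change was −0.28. The rise was that of NACA of the nascent chain complex, by 0.41 on the log2 scale, a call lost in each fit without 1 library. LTV1, a small-subunit assembly factor, was at 20.8, 22.4 and 22.03 FPKM in controls and 10.7, 11.8 and 13.3 FPKM in knockdowns (log2 fold change −0.82, adjusted p = 0.00400). RRS1, which brings 5S ribosomal RNA with RPL5 and RPL11, was at 32.6, 33.3 and 36.1 against 22.5, 21.6 and 21.4 FPKM (−0.62, adjusted p = 0.00563). GRWD1, the chaperone of RPL3, fell by 0.59 on the log2 scale and TSR2, the chaperone of RPS26, fell by 0.48; both calls were lost without control replicate 1 or 2, that of TSR2 also without replicate 3. Counts of falls were 2 without control replicate 1 or 2 and 7 with median-ratio scaling. Over all tested genes 522 of 12557, 447 of 12539 and 1916 of 12714 were called lower in those fits, in that order.

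Of 13 regulators of TOP translation 3 fell and 0 rose, with a median of −0.35, where 9.52% of all tested genes were called lower and 15.3% higher. LARP1 was at 72.1, 67.9 and 61.4 FPKM in controls and 39.2, 45.9 and 50.3 FPKM in knockdowns (log2 fold change −0.57, adjusted p = 0.0187). EIF4E, which binds the cap, fell by 0.71 in log2 units (adjusted p = 0.00744) and RPTOR, a subunit of mTOR complex 1, by 0.74 (adjusted p = 0.0150). MTOR itself stood at 15.4, 14.9 and 13.5 against 9.47, 10.98 and 12.7 FPKM, without overlap, and did not pass (−0.38, adjusted p = 0.0757). EIF4E was called in all 18 alternatives, and LARP1 and RPTOR lost their calls without control replicate 1 or 2 or knockdown replicate 2. With each of these left out, 1 regulator fell. Over all tested genes 522 of 12557, 447 of 12539 and 702 of 12285 were called lower in those fits, in that order.

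**Figure D5:**
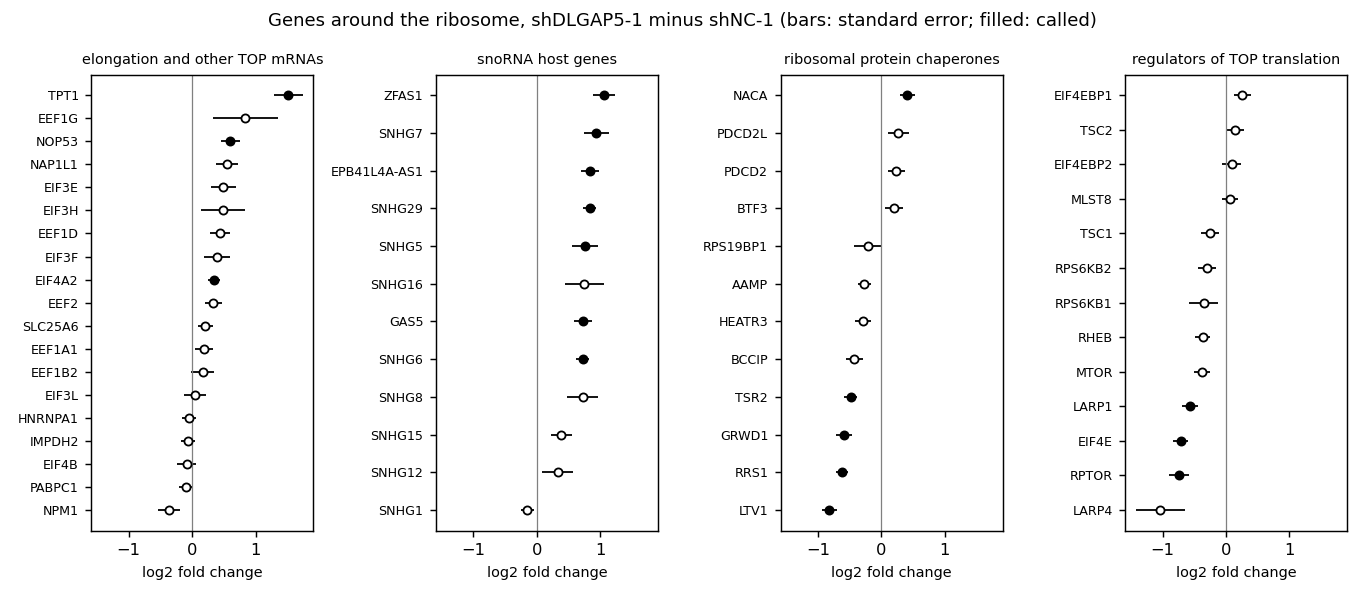
Log2 fold change with standard error of the tested genes in 4 lists around the ribosome; filled points passed an adjusted p of 0.05. Filled points lie above 0 for 7 of 12 snoRNA host genes and below 0 for 4 of 12 chaperones, where NACA lies above 0, and for 3 of 13 regulators. Over all tested genes 15.3% were called higher and 9.52% lower.

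Genes for the mitochondrial ribosome had a median log2 fold change of −0.10. Of 78 tested, 1 was called higher and 8 lower, where 15.3% of all tested genes were called higher and 9.52% lower. Counts of falls were 0 or 1 without any 1 control library, and 9, 1 and 2 without knockdown replicates 1, 2 and 3. They were 14 with equal totals and 19 after removal of the length trend. Over all 12714 tested genes 1211 were called lower in the main analysis, 1382 with equal totals and 1890 after that removal. Without control replicates 1 to 3 it was 522, 447 and 682 genes, and without knockdown replicates 1 to 3 it was 965, 702 and 1317. In the main analysis all knockdown libraries lay above all control libraries in 3 of the 78 and below in 20. Over all tested genes the shares were 25.6% above and 18.3% below. Their median deviation from the control mean was 0.06, −0.19 and −0.19 in knockdown replicates 1 to 3, where that of the cytosolic members was 0.67, 0.30 and 0.27. The difference between the lists was not tested.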

How the data were processed

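The authors deposited 1 table with a row per gene and a column per library. Its values were read as FPKM, scaled by the authors for transcript length and library size before deposit, from their form (not whole, with unequal column totals), since the file header names no unit. Which aligner, counter, annotation or strand setting was used is not given in the sources used here. Gene coordinates are the file's; 86.6% of all rows and 61.2% of members have the coordinates of GENCODE release 29 (GRCh38). Control columns carry NC and their number; the other 3 carry a construct number and were given to shDLGAP5-1, the 1 other group.

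The 12714 genes that reached 1 FPKM in 3 or more libraries entered limma (3.58.1, under R 4.3.3) as log2(FPKM + 1), with trended variances, no covariate, and p-values adjusted by Benjamini-Hochberg over all of them. A pseudocount understates the change of low genes. Fold changes are shDLGAP5-1 against shNC-1. The procedure was tested on simulated data. Members and lists were chosen with earlier results of these data known. Named genes were the P stalk, the paralogs, the members with the smallest p, the highest and lowest levels and the lowest fold changes of each subunit, 8 of known role, and up to 4 called genes of each other list; other names are further members or were chosen after values were seen. A few items are not reported here. Alternatives were other pseudocounts, filters, scalings, variance priors, a length correction, a replicate block and leaving out each library; 2, the principal transcript length and the adding of pseudogene FPKM, were chosen after seeing the data. FPKM hold no fragment counts, so intervals of counting error were not given.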

Additional observations from a re-analysis of the deposited data

How the results depend on the processing

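The number of members called higher, 16, was 1 to 19 when 1 library was left out, 3 with median-ratio scaling, 2 without a filter, 2 with the replicate block, and 1 with the replicate block after removal of the length trend; it was 14 with the length trend removed, 21 with the trend over principal transcripts, 15 with quantile normalization and 17 with equal totals. The cause was not tested, beyond that fits without a library hold fewer samples and that 31433 genes enter without a filter. The number called lower, 0, was 1 with the length trend removed and 3 with the trend over principal transcripts. The median of the members, 0.41, was 0.20 with quantile normalization, and that of the small subunit, 0.39, was 0.15. Same-numbered libraries deviated from their group means with correlations of −0.155, 0.0210 and −0.157. These values show no sign of pairing by number, but with 3 libraries per group they cannot exclude it. With the block the calls over all genes went from 3155 to 1464.

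Signs that turned, all in genes with no call, were as follows. With quantile normalization RPL11 was at −0.11, RPL35 at −0.0984, RPL4 at −0.13, RPS2 at −0.34 and RPS27A at −0.26. With equal totals RPL4 was at −0.0014, RPS2 at −0.0513, RPS27A at −0.10 and RPS28 at −0.0030, and with median-ratio scaling RPL39L was at −0.0099, RPL4 at −0.0125, RPS2 at −0.0624, RPS27A at −0.11 and RPS28 at −0.0141. With the length trend removed, with or without the replicate block, RPL39L was at −0.0901, RPS2 at −0.10, RPS27A at −0.16 and RPS28 at −0.0497, and with principal transcripts they were at −0.0910, −0.0942, −0.18 and −0.0130. When 1 library was left out, RPL4 ranged from −0.0928 to 0.40, RPL7L1 from −0.28 to 0.14, RPS2 from −0.10 to 0.16, RPS27A from −0.10 to 0.14 and RPS28 from −0.0273 to 0.25. Depth was lower in the knockdowns, and its effect was not tested.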

Other observations

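Read-through rows that join a member to its neighbour gave uneven values between libraries. RPL36A-HNRNPH2 was at 11.2, 30.5 and 31.2 FPKM in controls and at 349, 8.59 and 45.6 FPKM in knockdowns, next to RPL36A at 961, 1120 and 1400 FPKM and 2576, 1698 and 1608 FPKM. RPS10-NUDT3 was at 0.198, 0.149 and 7.23 FPKM in controls and 0.0689, 15.7 and 14.3 FPKM in knockdowns. RPL17-C18orf32 was at 11.6 ± 1.43 against 15.6 ± 1.44 FPKM (SD, n = 3 each). None of the 3 passed.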
